A study of Rattus norvegicus with 24 samples.

Results

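Whether dextran sodium sulfate (DSS) changed the contrast between tumour and normal colon was measured in 10 rats that develop colonic tumours. For each probe, the tumour minus normal colon difference of each rat was compared between DSS rats and untreated rats, and the result is called the interaction. A negative interaction means that tumours stood lower against their normal colon in DSS rats than in untreated rats, and a positive one that they stood higher. It equals the DSS effect in tumours minus the DSS effect in normal colon. All 24 arrays of the series, which hold 20 samples of rat and tissue, entered the comparison, and 30463 of 41012 gene probes were bright enough to test.

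All rats were male (ACIxF344)F1-Pirc rats of genotype Apc-Pirc/+, aged 97 days, so that untreated rats carried the Apc mutation as well. The 4 groups were tumours of DSS and of untreated rats and normal colon of DSS and of untreated rats, with 5 rats in each and both tissues taken from the distal colon of the same animal. DSS rats drank water with 4% DSS (molecular weight 500000) from day 40 to day 47 and again from day 54 to day 61, so tissue was taken after a period without DSS. Each sample was labelled with Cy3 and read as log2 of Cy3 over Cy5 against a pool of wild-type colon RNA, and a level of 0 means the level of that pool. For a probe near background in both colours, a level near 0 can also mean that neither was measured above background. The spread of the 5 rats per group sets the precision of every value below.

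DSS is a polymer that injures the lining of the colon and is widely used in rodents to produce colitis. Injury brings neutrophils and macrophages into the wall through chemokines, and the epithelium that closes the wound takes on a regenerative state. The Pirc rat carries a truncating mutation of Apc, whose loss activates Wnt signalling and starts adenomas. Squamous epithelium, with its keratins and cornified envelope proteins, normally lines the anal canal and not the colon.

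Before the results, some arrays have to be named. Arrays of the normal colon of rats 1 and 5, both given DSS, had a correlation over probes of 0.967 with 1 of 9900 bright probes over 1 log2 unit apart, which is as close as repeat arrays of 1 sample (0.808 to 0.967, with 1 to 67 probes). Other pairs of rats of 1 group had 0.547 to 0.927 with 55 to 1778 such probes. The labels give them as separate rats, so both were kept. Results with the pair counted as 1 rat are given where this ends the call of a gene printed with its value. They are also given where it moves the count of all calls, or of calls in a gene list, by over 1.5 times. On 3 arrays (rat 9 tumour, rat 4 normal colon and the first array of rat 2 normal colon) 87.1% to 95.2% of probes were well above background, against 48.4% to 71% on the other 21. The normal colon of untreated rat 8 held squamous transcripts at a mean of 1.08 over the list, where the other 4 untreated rats had -0.05 to 0.10. Markers of colonic epithelium were detected on 50% or more of the arrays for 4 of 5 genes in tumours of DSS rats and for 5 of 5 in the other 3 groups.

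The interaction passed an adjusted p of 0.05 (limma with Benjamini-Hochberg adjustment) for 1697 probes, 5.57% of those tested. Of these, 860 probes (2.82%) were higher and 837 (2.75%) lower. With DSS rats 1 and 5 counted as 1 rat, 857 probes passed, 402 higher and 455 lower. Without the pairing of tissues by rat, 708 passed, 235 higher and 473 lower. The DSS effect differed in size between the tissues. In normal colon, 2073 probes (6.8%) differed between DSS and untreated rats, while in tumours 0 probes (0%) passed, with 1932 at an unadjusted p under 0.05 and a smallest adjusted p of 0.141. The tumour minus normal colon difference passed for 3684 probes (12.1%) in DSS rats and for 7505 (24.6%) in untreated rats. These comparisons share samples with the interaction and are given side by side only.

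Among the 1697 probes, 1403 (82.7%) had the larger DSS effect in normal colon, against 64.8% of all probes tested. The gap between tumour and normal colon was smaller in DSS rats for 1189 of them (70.1%, against 56.3% of all tested). For lower probes the median DSS effect was -0.23 in tumours and 0.88 in normal colon. For higher probes it was 0.23 in tumours and -0.51 in normal colon. Counted by gene, with the brightest probe of each, 513 of 13388 genes (3.83%) were higher and 527 (3.94%) lower, and these are the shares to set beside the counts of gene lists. Fewer cells of a type and less RNA per cell cannot be told apart in these whole-tissue samples.

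**Figure D1:**
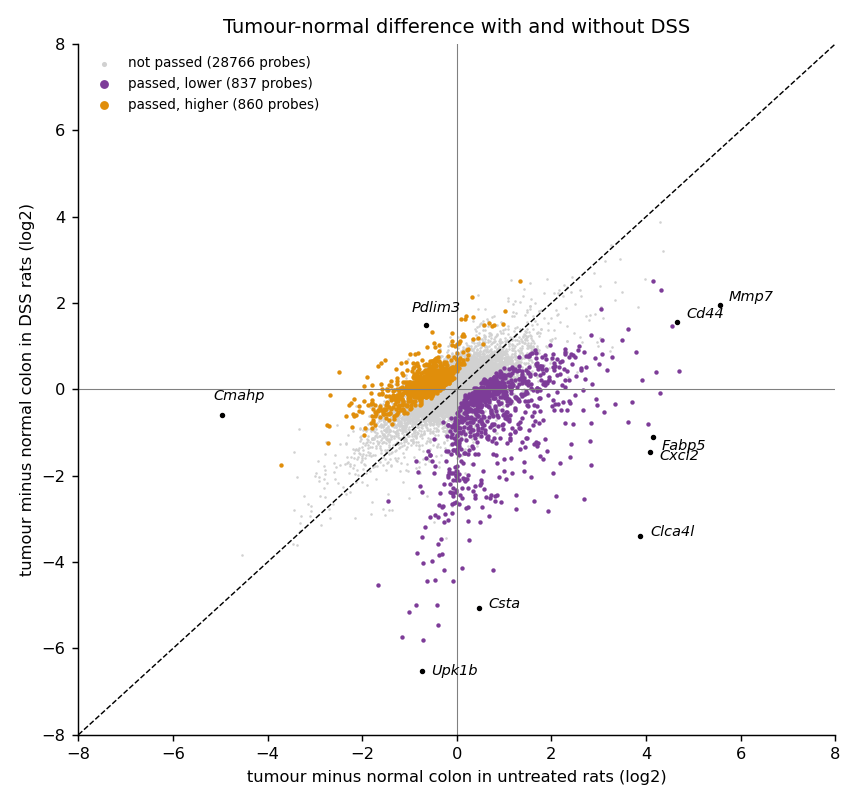
Each point is 1 probe, with its mean tumour minus normal colon difference in untreated rats (x axis, log2) and in DSS rats (y axis, log2); purple and orange points passed the interaction test (837 lower, 860 higher) and the dashed line marks equal differences. The purple points form one arm to the right, where Fabp5, Cxcl2, Mmp7 and Cd44 stand above normal colon in untreated rats, and one arm downwards, where Upk1b and Csta stand below normal colon in DSS rats.

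Among the 837 lower probes, 2 kinds were set apart. In the first, of 281 probes, tumours of untreated rats stood more than 1 log2 unit above their normal colon, and the median gap was 0.05 in DSS rats and 1.66 in untreated rats. In the second, of 173 probes, tumours of DSS rats stood more than 1 unit below their normal colon, with a median gap of -2.04 in DSS rats and 0.00 in untreated rats. The other 383 lower probes met neither limit. Among higher probes, 174 had tumours of untreated rats more than 1 unit below normal colon, and there the median gap was -0.26 in DSS rats and -1.35 in untreated rats. These groups were cut after the values were seen and describe the calls only.

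The oligonucleotides that read the main genes are printed so that each value can be tied to the stretch of transcript it measures. Fabp5, Mmp7, Cxcl2 and Cd44 stand for the first kind of lower gene, Upk1b and Krt5 for the second, and Cmahp and Anpep for the higher genes. Each probe is 60 bases long and is written in lower case from the deposited array files.
Fabp5 probe: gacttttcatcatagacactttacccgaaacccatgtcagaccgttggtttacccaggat
Mmp7 probe: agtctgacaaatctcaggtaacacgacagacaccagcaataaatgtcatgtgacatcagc
Cxcl2 probe: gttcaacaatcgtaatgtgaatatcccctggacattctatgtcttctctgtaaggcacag
Cd44 brighter probe: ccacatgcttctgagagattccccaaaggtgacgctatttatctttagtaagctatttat
Cd44 dimmer probe: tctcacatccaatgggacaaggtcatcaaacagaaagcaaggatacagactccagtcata
Upk1b probe: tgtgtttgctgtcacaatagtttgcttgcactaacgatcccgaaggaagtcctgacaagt
Krt5 probe: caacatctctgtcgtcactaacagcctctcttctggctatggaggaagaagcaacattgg
Cmahp probe: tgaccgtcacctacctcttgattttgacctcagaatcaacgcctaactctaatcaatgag
Anpep brighter probe: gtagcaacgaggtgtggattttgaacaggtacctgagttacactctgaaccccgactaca
Anpep dimmer probe: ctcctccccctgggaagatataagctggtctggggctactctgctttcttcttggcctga
Both genes with 2 probes printed gave unequal values. The brighter Cd44 probe had an interaction of -3.09 and the dimmer one -0.68 (adjusted p = 0.193). The brighter Anpep probe had 2.20 and the dimmer one 0.19 (adjusted p = 0.393). In RefSeq on GRCr8, Cd44 lies on chromosome 3, Anpep on 1, Fabp5 on 2, Mmp7 on 8, Cxcl2 on 14, Upk1b on 11, Krt5 on 7 and Cmahp on 17.

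In the first kind of lower gene, the gap between tumour and normal colon was smaller in DSS rats for 266 of 281 probes. Most of this count follows from the cut itself, which asked for a negative interaction and a tumour excess in untreated rats. Fabp5, a carrier of fatty acids in epidermis and other epithelia, is an example of the first kind. In tumours, Fabp5 stood at 0.61, 0.28, 1.36, 1.44 and 1.33 in DSS rats, against 0.49, 0.25, 1.03, 1.76 and 1.24 in untreated rats (rats 1, 5, 6, 7 and 9, then rats 2, 3, 4, 8 and 10, here and below). In normal colon, Fabp5 stood at 2.13, 2.16, 2.16, 0.86 and 3.20 in DSS rats, against -3.59, -3.75, -3.89, -1.79 and -2.90 in untreated rats. Tumours of both treatments overlapped, while the normal colon of every DSS rat lay above that of every untreated rat. The interaction was -5.24 ± 0.45 (adjusted p = 0.000572), with a DSS effect of 0.05 in tumours and 5.29 in normal colon.

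Mmp7, the protease matrilysin of intestinal tumours, kept part of its gap. In tumours, Mmp7 stood at 4.95, 5.12, 4.84, 5.84 and 5.99 in DSS rats, against 4.54, 4.88, 5.09, 5.90 and 5.92 in untreated rats. Normal colon had Mmp7 at 2.54, 2.74, 3.91, 3.93 and 3.87 in DSS rats, against -0.31, -0.70, -0.27, -0.10 and -0.07 in untreated rats. The tumour values overlapped and the normal colon values did not. Tumours exceeded normal colon by 1.95 in DSS rats and by 5.56 in untreated rats, and the interaction was -3.61 ± 0.31 (adjusted p = 0.000572). Cd44, a receptor for hyaluronan and a Wnt target, had an interaction of -3.09 ± 0.34 (adjusted p = 0.00202) on the brighter probe. Its normal colon level was 0.45, 0.57, 1.07, 0.47 and 1.28 in DSS rats, against -1.83, -2.84, -2.48, -1.998 and -1.42 in untreated rats, without overlap, and its DSS effect in tumours was -0.21. Of 22 Wnt pathway targets measured, these 2 were lower, 0 were higher and 20 did not pass, and the list median was 0.10 against 0.03 over all probes. Axin2, the feedback inhibitor of the pathway, had a tumour minus normal colon difference of 1.01 in DSS rats and 0.995 in untreated rats, and an interaction of 0.01 (95% interval -0.74 to 0.76, adjusted p = 0.99).

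**Figure D2:**
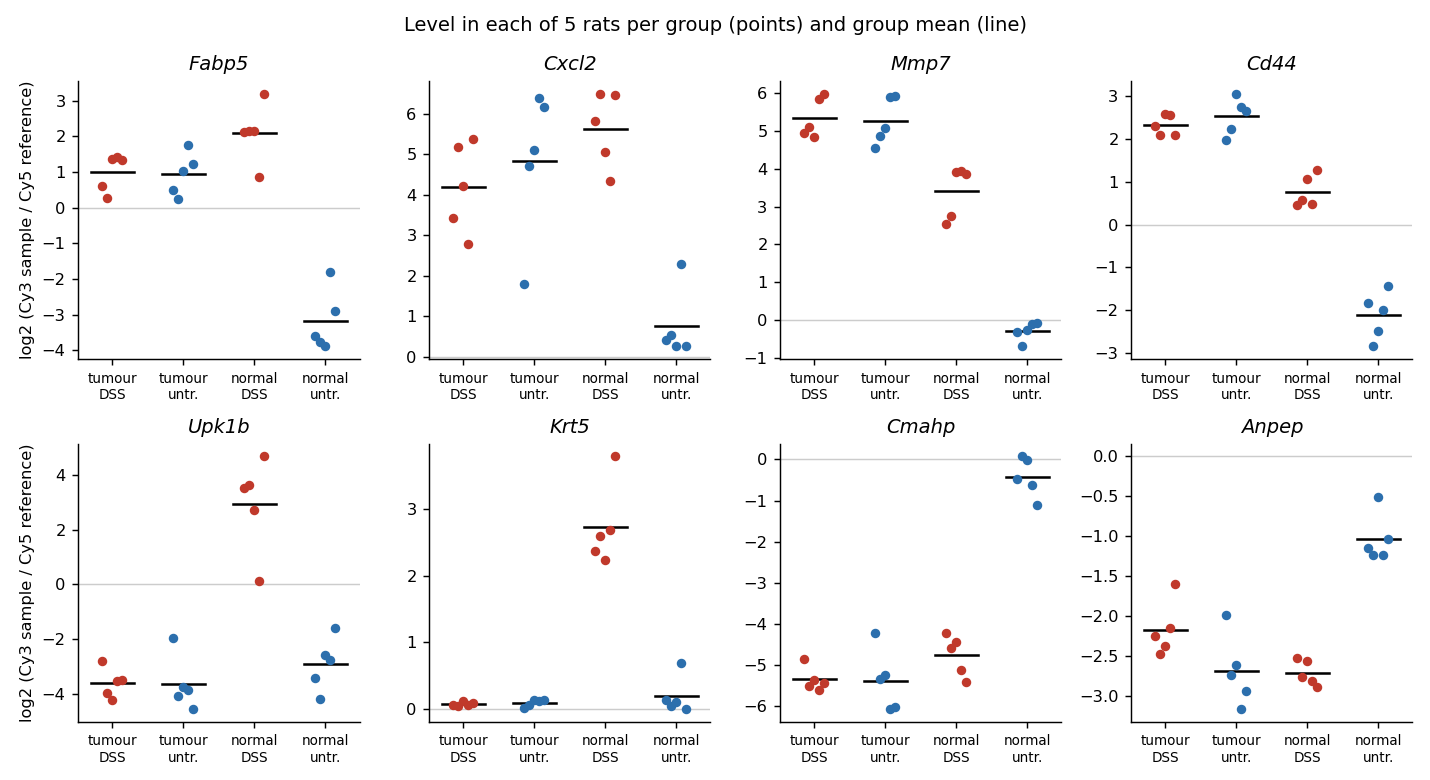
Each panel is 1 gene, the y axis is log2 of the Cy3 sample over the Cy5 reference, each point is 1 rat and the black line is the mean of the 5 rats of a group. In the upper row and for Cmahp and Anpep, the normal colon of DSS rats (red) lies on the tumour side of untreated normal colon (blue), and for Upk1b and Krt5 it lies above the 3 other groups.

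The neutrophil-drawing chemokines Cxcl1, Cxcl2 and Cxcl3 were of the first kind. Cxcl2 stood in tumours at 3.42, 5.18, 4.21, 2.78 and 5.38 in DSS rats, against 1.80, 4.72, 5.12, 6.39 and 6.17 in untreated rats. Normal colon had Cxcl2 at 5.83, 6.49, 5.05, 4.34 and 6.46 in DSS rats, against 0.41, 0.54, 0.27, 2.30 and 0.26 in untreated rats. All 5 DSS rats exceeded all 5 untreated rats in normal colon, where untreated rat 8 was the highest of its group. Tumours stood below their normal colon in 5 of 5 DSS rats and above it in 5 of 5 untreated rats, and the interaction was -5.52 ± 0.69 (adjusted p = 0.00367). Its relatives Cxcl1 and Cxcl3 had -3.997 ± 0.61 (adjusted p = 0.00732) and -3.60 ± 0.38 (adjusted p = 0.00196). Il1b, the cytokine that acts upstream of many of these genes, had -2.47 ± 0.26 (adjusted p = 0.00172) and its second probe -3.68. Of 38 cytokines and chemokines measured, 9 were lower, 0 were higher and 29 did not pass, with a median of -0.33.

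Some neutrophil and macrophage genes were lower as well. S100a8 and S100a9, the 2 chains of calprotectin, had interactions of -4.36 ± 0.39 (adjusted p = 0.000762) and -3.69 ± 0.30 (adjusted p = 0.000472). Tumour minus normal colon for S100a8 was -1.14, -0.45, -0.65, -0.37 and -1.12 in DSS rats, against 2.37, 3.23, 3.47, 4.26 and 4.75 in untreated rats. Every DSS rat was below 0 and every untreated rat above it. The DSS effect on S100a8 was -1.21 in tumours and 3.15 in normal colon. Its 2 other probes, both dimmer, had -1.43 and -1.58. Il1r2, the decoy receptor for interleukin 1, had -2.08 ± 0.35 (adjusted p = 0.0112). Of 18 neutrophil genes measured, 6 were lower, 0 higher and 12 did not pass (median -0.56). The list averaged 0.41 to 0.68 in tumours of DSS rats and 0.40 to 1.22 in those of untreated rats. In normal colon it averaged 0.40 to 0.65 with DSS and -0.25 to -0.05 without. Of 17 macrophage and dendritic cell genes, 5 were lower and 0 higher (median -0.69): Cd68, Fcgr1a, Lyz2, Fcgr2a and Tyrobp. Of these 5 calls, 3 held with DSS rats 1 and 5 counted as 1 and 3 without the rat pairing. Lyz2, the lysozyme of macrophages, had -2.67 ± 0.31 (adjusted p = 0.00293). The Fc receptor Fcgr2a had -2.80 ± 0.39 (adjusted p = 0.00523) and its 2 dimmer probes -0.94 and -1.11. The adaptor Tyrobp had -1.97 ± 0.25 (adjusted p = 0.00373), while its dimmer probe had -0.22 and did not pass. Under median centring Lyz2, Fcgr2a and Tyrobp had -1.75, -1.88 and -1.07 and did not pass (adjusted p = 0.0564, 0.0819 and 0.232). None of 17 T, B and plasma cell genes, 8 mast cell genes, 14 endothelial genes or 25 fibroblast and matrix genes passed in this limma fit, where 1, 0, 1 and 4 of them, in that order, had an unadjusted p under 0.05.

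The promoters of the chemokine genes Cxcl1 and Cxcl2 are shown because these genes moved together, and that of Mmp7 because its tumour excess in untreated rats was the largest of the named genes. The sequences are RefSeq's on GRCr8, from 250 bases to 1 base before the start site, and were found for these 3 genes. Those of Cxcl3, Fabp5 and S100a8 were also sought and not found, so these genes were not searched for motifs. Capitals mark matches, on either strand, to an NF-kB motif (GGGNN followed directly by TTTCC) or an AP-1 motif (TGANTCA), where N is any base, and no match overlapped another.
Cxcl1, chr14:17479322-17479571, minus strand: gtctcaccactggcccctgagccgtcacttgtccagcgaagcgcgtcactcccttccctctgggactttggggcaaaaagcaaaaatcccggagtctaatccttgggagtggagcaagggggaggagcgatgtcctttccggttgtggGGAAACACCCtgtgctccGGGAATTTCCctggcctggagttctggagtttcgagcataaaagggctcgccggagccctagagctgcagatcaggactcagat
Cxcl2, chr14:17467256-17467505, minus strand: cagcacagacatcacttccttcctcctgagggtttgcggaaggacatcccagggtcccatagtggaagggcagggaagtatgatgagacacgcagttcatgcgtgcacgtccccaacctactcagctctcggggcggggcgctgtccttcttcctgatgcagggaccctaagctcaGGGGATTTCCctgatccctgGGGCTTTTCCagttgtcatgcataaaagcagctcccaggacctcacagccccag
Mmp7, chr8:13132793-13133042, plus strand: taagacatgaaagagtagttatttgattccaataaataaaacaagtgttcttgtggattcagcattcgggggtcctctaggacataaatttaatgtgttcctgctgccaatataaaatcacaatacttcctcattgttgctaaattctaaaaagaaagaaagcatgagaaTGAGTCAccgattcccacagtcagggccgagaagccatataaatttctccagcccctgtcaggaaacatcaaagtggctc
Cxcl1 and Cxcl2 each held 2 NF-kB matches and 0 AP-1 matches, and Mmp7 held 1 AP-1 match and 0 NF-kB matches. The promoters of Krt5 and Cmahp, also searched and not printed, held 0 matches to either motif. Among 33469 promoters of the same length, 1.3% held the NF-kB motif and 6.34% the AP-1 motif. A match describes the letters of this window and shows no binding.

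Regenerative epithelial genes, antimicrobial genes and proteases held further lower calls. Of 26 regenerative and fetal-like epithelium genes, 9 were lower, 0 higher and 17 did not pass (median -1.03). Anxa1, an annexin of injured epithelium, had -2.20 ± 0.22 (adjusted p = 0.00149) and its second probe -3.96. S100a4, a calcium-binding protein of motile cells, had -3.12 ± 0.22 (adjusted p = 0.000263), which is the smallest adjusted p reached, shared with 3 other probes. Its other probes had -2.71 and -0.37, and the last did not pass. S100a4, S100a8 and S100a9 were the 3 lower members of 13 S100 proteins measured.

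Of 16 genes measured in the antimicrobial epithelium list, 7 were lower, 0 higher and 9 did not pass (median -1.19). Lyz2 is among these 7 and was also counted with the macrophage genes, so the list does not stand for epithelium alone. Defa6, an alpha-defensin, had -4.26 ± 0.40 (adjusted p = 0.0017), from 4 DSS rats because the rat 9 tumour value was missing. Duox2, an oxidase of the epithelial surface, had -1.37 ± 0.20 (adjusted p = 0.00633). Reg3b, a secreted lectin induced by bacteria, ranged from -2.25 to -3.45 in tumours of DSS rats and from -4.22 to 3.96 in tumours of untreated rats, where rat 8 was the highest. Its interaction was -0.28 with a 95% interval of -4.03 to 3.47. Of 20 matrix proteases and plasminogen system genes, 5 were lower and 0 higher (median -0.72): Mmp7, Timp1, Serpinb5, Plat and Serpinb2. Plat, the tissue plasminogen activator, had -2.63 ± 0.35 (adjusted p = 0.00426). Serpinb2, an inhibitor of plasminogen activators, had -3.28 ± 0.32 (adjusted p = 0.00133). Prss22, a serine protease, had -4.85 ± 0.43 (adjusted p = 0.000681), and its DSS effect was -0.15 in tumours and 4.70 in normal colon.

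Among the named genes, the largest interaction by size belonged to Clca4l, of the calcium-activated chloride channel regulator family. Tumour levels of Clca4l were 1.15, 1.73, 2.35, 2.10 and 4.53 in DSS rats, against 1.52, 3.58, 4.14, 6.66 and 5.22 in untreated rats. Its normal colon levels were 5.26, 5.93, 4.84, 4.51 and 8.30 in DSS rats, against 0.04, 0.25, 0.01, 1.39 and 0.02 in untreated rats. Normal colon did not overlap between treatments. Its interaction was -7.28 ± 0.70 (adjusted p = 0.00133), and tumours stood -3.40 from normal colon in DSS rats and 3.88 in untreated rats. The family members Clca5 and Clca4 had -4.56 ± 0.52 (adjusted p = 0.0027) and -2.32 ± 0.18 (adjusted p = 0.000364), and the dimmer Clca5 probe had -0.29 and did not pass. Alpl, the alkaline phosphatase of many tissues, had -5.22 ± 0.65 (adjusted p = 0.00348). The small secreted protein Wfdc18 had -4.93 ± 0.41 (adjusted p = 0.000526).

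Squamous and urothelial genes had lower calls of both kinds. Of 25 squamous epithelium genes measured, 15 were lower, 0 higher and 10 did not pass, and the list median was -2.67. The list averaged -0.02 to 0.25 in tumours of DSS rats, 0.15 to 0.54 in tumours of untreated rats and 1.96 to 3.25 in normal colon of DSS rats. Untreated normal colon averaged -0.05 to 1.08 over the list, the upper value being rat 8. All 8 squamous markers were well above background on 50% or more of the arrays of DSS normal colon, against 6 in untreated normal colon, 3 in tumours of DSS rats and 5 in tumours of untreated rats. The arrays with raised signal lie in untreated normal colon (rats 2 and 4) and in DSS tumours (rat 9). Their part in these detection counts was not tested. The series text places all samples in the distal colon without a distance from the anus, and the part of squamous cells or of the sampling site in these values was not tested.

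Krt5, the keratin of basal squamous cells, stood in normal colon at 2.37, 2.60, 2.23, 2.69 and 3.79 in DSS rats, against 0.14, 0.05, 0.11, 0.70 and 0.002 in untreated rats. Its tumours lay between 0.01 and 0.13 in all 10 rats. Krt5 was well above background on 2 of 6 arrays of DSS tumours and on 4 of 5 arrays of untreated tumours. Part of these levels near 0 therefore rests on signal close to background. The interaction was -2.55 ± 0.27 (adjusted p = 0.00196), and its dimmer probe, at -0.87, missed the threshold (adjusted p = 0.0803). Krt10, a keratin of the upper squamous layers, stood in normal colon at 3.30, 3.63, 3.04, 3.50 and 4.55 in DSS rats, against 0.12, 0.06, 0.14, 1.86 and 0.001 in untreated rats. Untreated rat 8 lay between the other untreated rats and the DSS rats. The Krt10 interaction was -3.17 ± 0.40 (adjusted p = 0.00371). Krt10 was well above background on 1 of 6 arrays of DSS tumours and on 1 of 5 arrays of untreated tumours. Krt15, another basal keratin, had -4.74 ± 0.51 (adjusted p = 0.00196), and Tgm1, which crosslinks the cornified envelope, had -2.71 ± 0.27 (adjusted p = 0.00149). Krt5 and Krt10 were of the second kind, while Tgm1 and Krt15 were of the first, with tumours of untreated rats 2.39 and 1.93 above normal colon.

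Csta and Stfa3, cystatin-type inhibitors of cysteine proteases, were among the largest values. Csta stood in normal colon at 5.43, 5.48, 4.84, 5.02 and 7.73 in DSS rats, against 0.05, -0.61, 0.57, 4.44 and 0.81 in untreated rats. The 5 DSS rats lay above all untreated rats, of which rat 8 was closest. Its interaction was -5.53 ± 0.67 (adjusted p = 0.00322), and its second probe had -3.47. Stfa3 had -4.58 ± 0.89 (adjusted p = 0.0196), with untreated rat 8 at 4.65 in normal colon inside the range of the DSS rats, 4.53 to 7.61, and its dimmer probe had -0.61 and did not pass. Among 7 urothelial genes, 3 were lower and 0 higher (median -1.46): Upk1b, Upk1a and Grhl3, all of the second kind. Upk1b, a uroplakin of the bladder lining, stood in tumours at -2.80, -3.96, -4.21, -3.50 and -3.47 in DSS rats, against -1.94, -4.08, -3.73, -3.84 and -4.54 in untreated rats. Normal colon had Upk1b at 3.51, 3.62, 2.71, 0.12 and 4.67 in DSS rats, against -3.40, -4.17, -2.56, -2.74 and -1.58 in untreated rats. DSS rat 7 was the lowest of its group and still above every untreated rat. The Upk1b interaction was -5.78 ± 0.94 (adjusted p = 0.00917) and that of its dimmer probe -2.07. Upk1a, a second uroplakin, had -1.996 ± 0.37 (adjusted p = 0.0171), and the epithelial transcription factor Grhl3 had -2.16 ± 0.55 (adjusted p = 0.0488). Upk1a was well above background on 1 of 6 arrays of DSS tumours and on 1 of 5 arrays of untreated tumours.

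**Figure D3:**
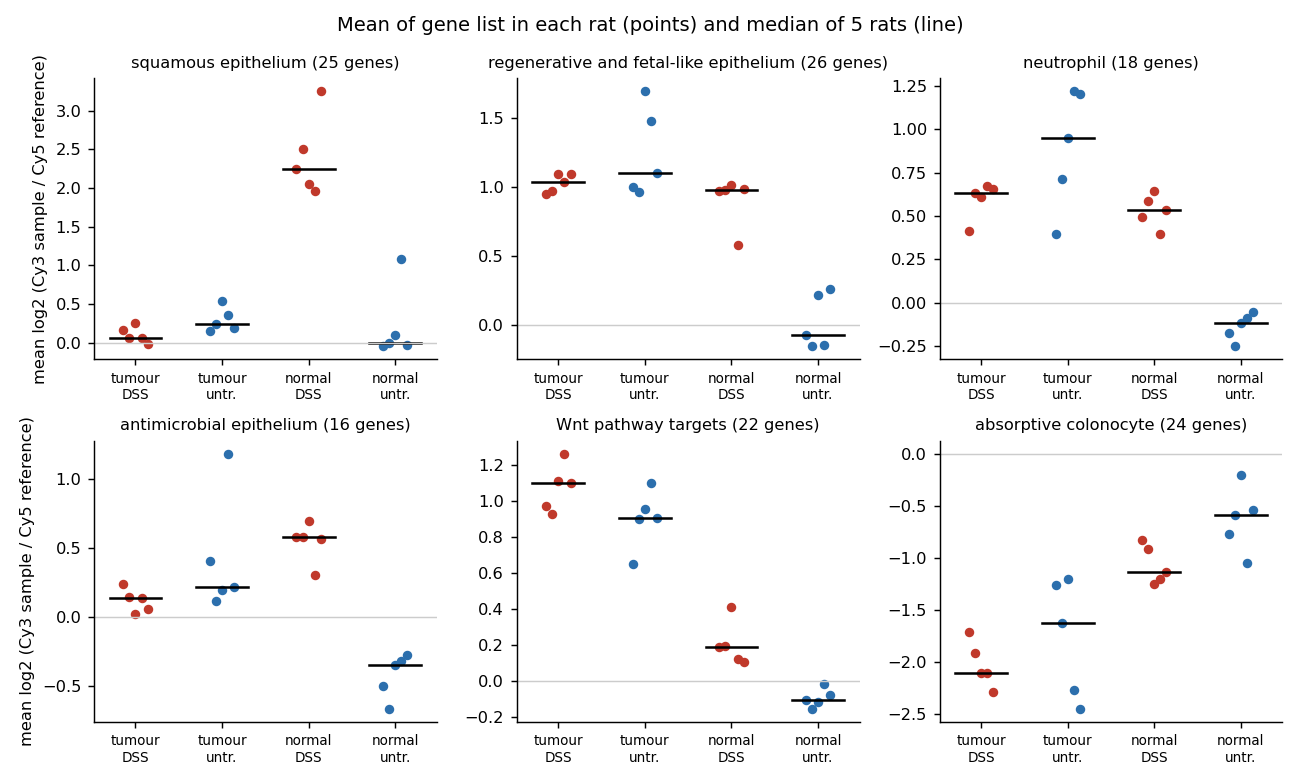
Each panel is 1 gene list, each point is the mean log2 Cy3 over Cy5 of the list in 1 rat and the black line is the median of 5 rats. The squamous list lies at 1.96 to 3.25 in normal colon of DSS rats and at most at 1.08 elsewhere, while normal colon of DSS rats overlaps the tumours in the neutrophil and regenerative lists.

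Of 22 retinoid genes measured, 3 were lower, 1 higher (Adh1c) and 18 did not pass. Crabp2, a carrier of retinoic acid, had -4.21 ± 0.43 (adjusted p = 0.00166), and Rbp2, a carrier of retinol, -2.63 ± 0.42 (adjusted p = 0.00854). Aldh1a3, which makes retinoic acid, had -2.46 ± 0.30 (adjusted p = 0.0033), and tumours of untreated rats stood 2.70 above normal colon. Aldh1a1, a related enzyme, had 2.41 ± 0.62 (adjusted p = 0.0502) and did not pass. Its normal colon level was -2.16, -2.13, -3.04, -3.97 and -4.10 in DSS rats, against -0.91, 0.42, 0.71, -0.41 and -0.50 in untreated rats, without overlap.

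Genes with a positive interaction were mostly those that were lower in normal colon of DSS rats. Cmahp, RefSeq's symbol for the rat gene of an enzyme of sialic acid synthesis, had the largest value. Cmahp stood in tumours at -4.84, -5.50, -5.36, -5.61 and -5.43 in DSS rats, against -4.21, -5.35, -5.25, -6.07 and -6.01 in untreated rats. In normal colon, Cmahp stood at -4.22, -4.59, -4.45, -5.11 and -5.42 in DSS rats, against -0.47, 0.08, -0.01, -0.61 and -1.11 in untreated rats. Normal colon of DSS rats lay within the range of the tumours and below every untreated normal colon. The interaction was 4.36 ± 0.32 (adjusted p = 0.00027), with a DSS effect of 0.03 in tumours and -4.33 in normal colon. Ces1e, a carboxylesterase, had 2.88 ± 0.49 (adjusted p = 0.0115). Anpep and Dpp4, peptidases of the brush border, had 2.20 ± 0.27 (adjusted p = 0.00352) and 1.93 ± 0.26 (adjusted p = 0.00507). The second Dpp4 probe had 2.54. In normal colon, Anpep stood at -2.53, -2.77, -2.56, -2.81 and -2.89 in DSS rats, against -1.15, -1.23, -0.50, -1.24 and -1.03 in untreated rats. Its tumour minus normal colon difference was above 0 in 5 of 5 DSS rats and below 0 in 5 of 5 untreated rats.

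Pdlim3, an actin-associated protein of muscle, was among the genes that also separated in tumours. In tumours, Pdlim3 stood at 0.80, 0.75, 0.03, 0.39 and 1.19 in DSS rats, against -0.23, -0.11, -1.70, -0.003 and -0.06 in untreated rats. Normal colon had Pdlim3 at -0.53, -0.36, -1.41, -0.95 and -1.0 in DSS rats, against 0.60, -0.02, -0.12, 0.74 and -0.04 in untreated rats. DSS rats lay above all untreated rats in tumours and below them in normal colon, and the interaction was 2.14 ± 0.30 (adjusted p = 0.00582). The DSS effect of 1.06 in tumours did not pass (adjusted p = 0.42). Of the 67 named genes that passed, Pdlim3, Clca4, Foxa3 and Ms4a12 were the 4 whose tumours did not overlap between treatments, against 51 whose normal colon did not. Named genes had passed the interaction, which favours such separation. The shares over all probes were not counted, so both counts describe these genes only. Of 9 smooth muscle genes, 0 passed in this limma fit (2 at an unadjusted p under 0.05), and the list median was 0.65. Speg, a kinase of muscle, had 2.21 ± 0.39 (adjusted p = 0.014), the calcium channel subunit Cacnb3 2.18 ± 0.28 (adjusted p = 0.00392), and the somatostatin receptor Sstr1 2.22 ± 0.35 (adjusted p = 0.00839).

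Other named genes with a positive value were enzymes, a transporter and a small GTPase. Pck1, the rate-limiting enzyme of gluconeogenesis, had 1.99 ± 0.42 (adjusted p = 0.0262) and its second probe 1.55. Tumour minus normal colon for Pck1 was -1.89, -2.47, -1.97, -0.83 and -1.55 in DSS rats, against -2.38, -3.56, -3.75, -4.20 and -4.74 in untreated rats, and the treatments overlapped. It was the 1 gene past the threshold among 7 gluconeogenesis genes. Dio1, which activates thyroid hormone, had 1.94 ± 0.31 (adjusted p = 0.00854). Rasd1, a small GTPase induced by glucocorticoids, had 1.88 ± 0.31 (adjusted p = 0.0101), and its dimmer probe had 0.03 and did not pass. The organic anion transporter Slco2b1 had 1.86 ± 0.46 (adjusted p = 0.0439), and its dimmer probe 0.61 did not pass. The Slco2b1 call ended in 17 of 28 alternatives and without any 1 of 8 of the 10 rats. Acadm, an enzyme of fatty acid oxidation, had 0.70 ± 0.14 (adjusted p = 0.0219). Of 24 fatty acid oxidation and ketogenesis genes, Acadm among them, 2 were higher, 0 lower and 22 did not pass (median 0.08). Of these 2 calls, 1 held with DSS rats 1 and 5 counted as 1 and 0 without the rat pairing.

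Of 35 xenobiotic metabolism genes, 5 were higher, 3 lower and 27 did not pass (median 0.35). Of these 8 calls, 2 held with DSS rats 1 and 5 counted as 1 and 3 without the rat pairing. Ephx1, an epoxide hydrolase, had 1.12 ± 0.23 (adjusted p = 0.0245). Nqo1, a quinone reductase, had -2.08 ± 0.33 (adjusted p = 0.00875), and Cyp1b1, a cytochrome P450, -1.60 ± 0.34 (adjusted p = 0.026), while the second Cyp1b1 probe had -0.16 and did not pass. Across alternatives the Cyp1b1 value ranged from -6.09, with processed signals, to -1.23, without the 3 arrays of raised signal, and its call ended in 10 of 28. Of 24 absorptive colonocyte genes, 2 were higher (Hsd11b2 and Guca2b), 2 lower (Ms4a12 and Ceacam1) and 20 did not pass. With DSS rats 1 and 5 counted as 1, 1 of these 4 calls held. Hsd11b2, which inactivates glucocorticoids, had 1.59 ± 0.27 (adjusted p = 0.0112). The membrane protein Ms4a12 had -1.21 ± 0.28 (adjusted p = 0.0369) and the adhesion molecule Ceacam1 -1.54 ± 0.34 (adjusted p = 0.0309). Slc26a3, the chloride and bicarbonate exchanger of colonocytes, had 0.71 (95% interval -0.66 to 2.07) and did not pass. Of 11 goblet and secretory genes, Clca4 alone passed, and the mucin Muc2 had 0.28 (95% interval -0.27 to 0.84).

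Among 20 intestinal identity transcription factors, 3 were higher, 1 lower and 16 did not pass (median 0.45). The forkhead factors Foxa2 and Foxa3 had 1.81 ± 0.34 (adjusted p = 0.0169) and 1.06 ± 0.18 (adjusted p = 0.0121), and Hoxb13 was the third. Without the rat pairing 2 of the 4 calls held. The ETS factor Ehf, the lower one, had -1.29 ± 0.15 (adjusted p = 0.00293). Tumours stood below normal colon for Ehf and above it for Foxa2 and Foxa3 in 5 of 5 DSS rats, and the reverse held in 5 of 5 untreated rats.

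Arg1, Ass1, Slc16a3, Pgk1 and Pfkp kept a tumour excess in DSS rats that was smaller than in untreated rats. Under median centring their interactions were -2.18, -1.27, -0.63, 0.14 and 0.19, in that order, and did not pass. They did not pass without the 3 arrays of raised signal either. Arg1, which splits arginine, stood in tumours at 3.64, 3.69, 3.40, 3.90 and 3.96 in DSS rats, against 3.21, 3.67, 4.76, 5.93 and 5.03 in untreated rats. Normal colon had Arg1 at 1.29, 1.47, 2.61, 2.72 and 3.11 in DSS rats, against -0.06, -0.17, -0.43, 0.20 and 0.33 in untreated rats. Normal colon did not overlap between treatments and tumours did. The interaction was -3.07 ± 0.49 (adjusted p = 0.00861), with tumours 1.48 above normal colon in DSS rats and 4.55 in untreated rats. Ass1, which makes the precursor of arginine, had -2.01 ± 0.45 (adjusted p = 0.0306), with tumours 2.30 above in DSS rats and 4.31 in untreated rats. Oat, ornithine aminotransferase, had 1.47 ± 0.28 (adjusted p = 0.0179) and its second probe 1.49. Of 16 arginine and polyamine metabolism genes measured, 2 were lower, 1 was higher and 13 did not pass (median -0.15). Of 26 glycolysis and hypoxia genes, 6 were lower, 0 higher and 20 did not pass (median -0.16), and 1 of these 6 calls held without the rat pairing. The lactate exporter Slc16a3 had -1.57 ± 0.26 (adjusted p = 0.01). The enzymes Pgk1 and Pfkp had -0.74 ± 0.13 (adjusted p = 0.0129) and -0.72 ± 0.14 (adjusted p = 0.0171). Rrm2, a subunit of ribonucleotide reductase, was the 1 lower gene of 26 proliferation genes at -1.19 ± 0.15 (adjusted p = 0.00373). Fosl1, an AP-1 subunit, had -1.69 ± 0.31 (adjusted p = 0.015). Of 21 immediate early genes, Fosl1 among them, 2 were lower, 0 higher and 19 did not pass (median -0.05). Of these 2 calls, 1 held with DSS rats 1 and 5 counted as 1 and 1 without the rat pairing.

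**Figure D4:**
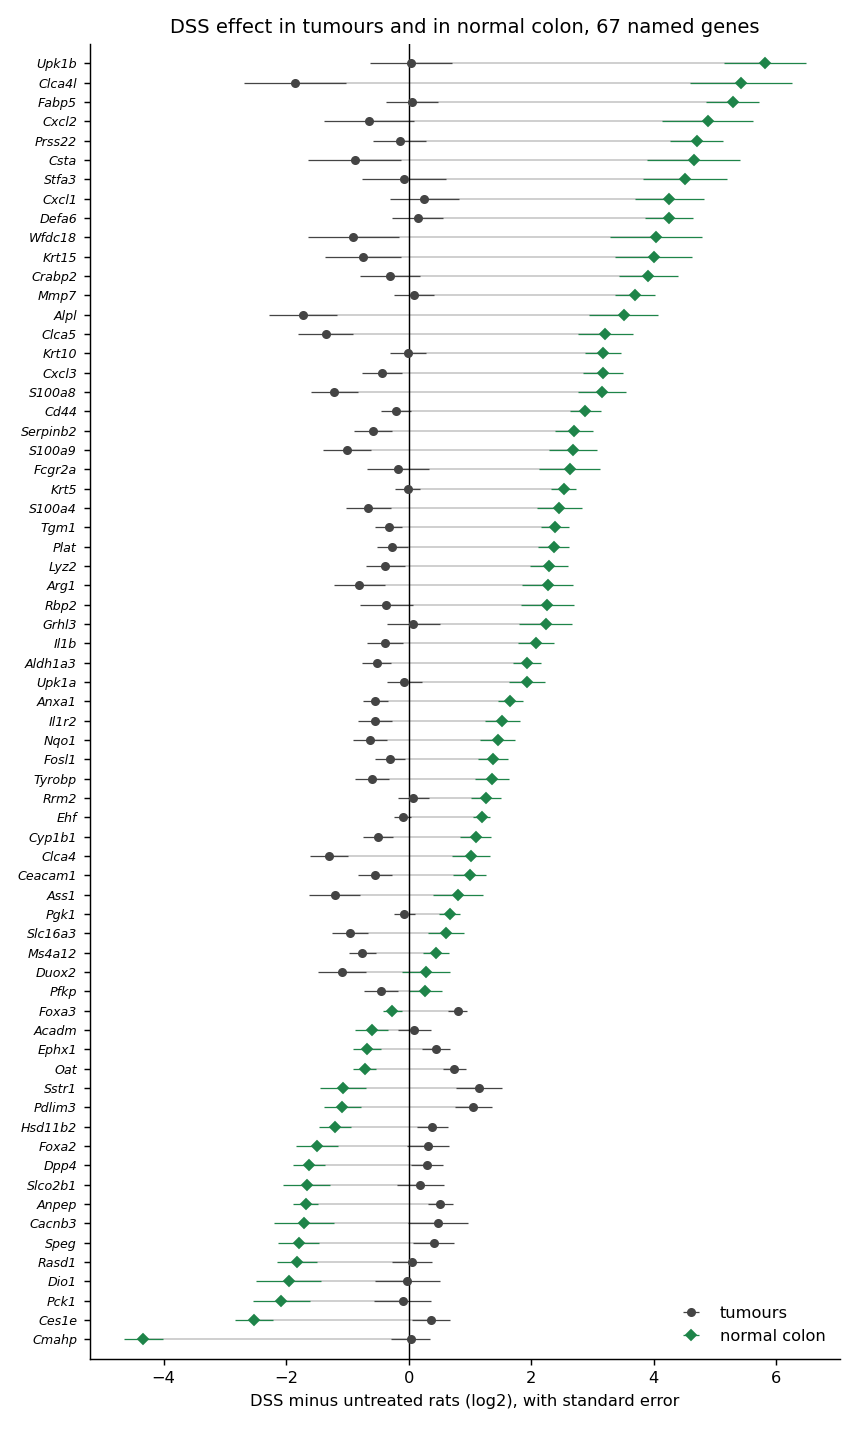
For the 67 named genes that passed the interaction test, the plot gives the DSS minus untreated difference (x axis, log2) with its standard error in tumours (grey circles) and in normal colon (green diamonds), sorted by the value in normal colon. The effect was larger in normal colon for 58 of 67 genes, beside 64.8% of all probes tested. In normal colon 57 passed, beside 6.8% of all probes, and in tumours 0 passed. These genes had been selected by the interaction, so the counts describe them only.

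The arrays fell into slide set 1 (slides 1 to 4) and slide set 2 (slides 5 and 6). The 67 named genes were chosen on both sets together, so their values within a set are a description. Within set 1, which held 3 DSS and 3 untreated rats, 45 of the 67 also passed. Within set 2, with 2 rats of each treatment, 0 of all probes passed in limma, with 3522 at an unadjusted p under 0.05. Set 2 was also scan day 3, and the 2 cannot be told apart. Fabp5 had -5.73 in set 1 and -4.49 in set 2, Krt5 -2.29 and -2.94, and Cmahp 3.99 and 4.92.

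The number of calls depended on single rats. It was 567 without untreated rat 4, 787 without untreated rat 8, 1019 without untreated rat 3, 813 without DSS rat 1, 847 without DSS rat 5 and 922 without DSS rat 9. Without the 3 arrays of raised signal, which removes rats 4 and 9, 338 probes passed, and 22 of the 67 named calls were lost, Upk1b, Upk1a and Stfa3 among them. Median centring in place of loess moved named genes unequally. Fabp5 went from -5.24 to -4.15, Cd44 from -3.09 to -2.13 and Acadm from 0.70 to 1.52. Krt5 stayed at -2.55, and Krt10 went from -3.17 to -3.37. Median centring moved the median of all probes to 0.39, against 0.03, and gave 3050 higher and 370 lower probes. Under it Pgk1 had 0.14 and Pfkp 0.19, the opposite direction, and 16 other named calls were lost, those of Anxa1, Arg1, Ass1, Clca4, Duox2, Ehf, Fcgr2a, Fosl1, Grhl3, Lyz2, Ms4a12, Nqo1, Oat, Rrm2, Slc16a3 and Tyrobp. Counting DSS rats 1 and 5 as 1 ended the calls of Acadm, Ass1, Cyp1b1, Slco2b1, Grhl3, Ms4a12 and Ceacam1. Without the rat pairing, Acadm, Ass1, Cacnb3, Dio1, Duox2, Ephx1, Foxa2, Grhl3, Pck1, Pfkp, Pgk1, Rrm2, Slc16a3 and Slco2b1 did not pass. Leaving out any 1 of several rats ended the weaker calls, which was so for 9 of 10 rats for Ms4a12, 8 for Grhl3 and for Slco2b1, 6 for Ceacam1 and for Cyp1b1, 5 for Pck1 and for Ass1, 4 for Acadm and 3 for Ephx1. The calls of Pfkp and Stfa3 ended without untreated rat 4. Apart from slide set 2 alone, 29 of the named calls held in every alternative in which the gene was tested, which was 27 alternatives, or 26 for Krt10, left out by the filter at 12 arrays. Among them were Fabp5, Mmp7, Cd44, Cxcl2, S100a8, Clca4l, Krt5, Krt10, Csta, Cmahp, Anpep and Pdlim3.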

How the data were processed

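RNA of 20 samples (tumour and normal colon of 10 rats) was read on 24 two-colour rat arrays. The authors labelled samples with Cy3 and a wild-type colon pool with Cy5, per the labels, and no dye swap was made. Signals and backgrounds of spots were deposited as intensity by version 9.1.3.1 of Feature Extraction, as the headers state. The deposited log ratio column is log10 of Cy5 over Cy3 and agreed within 0.01 with log10 of the processed signals for 75.1% to 98.9% of spots of an array. It was used only for that check. The submitters' processing notes also list Partek, without a role.

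From the deposited intensity values, log2 of Cy3 over Cy5 was computed in R 4.3.3 with limma 3.58.1 and statmod 1.5.0, after normexp correction (offset 50) and loess within each array, with control and outlier spots at weight 0. Spots of a probe were averaged, then arrays of the same rat and tissue. Probes had to be well above background in Cy3 on at least 5 of 24 arrays, which left 30463 of 41012, and 500 of 731112 values were missing. Current symbols were assigned through RefSeq tables to 21132 probes, and the brightest probe on average over both channels represented its gene.

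The interaction was fitted with limma on the 10 per-rat differences, DSS minus untreated, two-sided, with p-values adjusted by Benjamini-Hochberg across all probes, a threshold of 0.05 and 8 residual and 2.59 prior degrees of freedom. Errors after a value are standard errors with 5 rats per treatment. DSS effects within a tissue came from a model of the 20 samples. The rat pairs the tissues because both came from 1 animal, and after removal of group means they correlated at 0.065 to 0.572 (over 0.1 in 9 of 10 rats). Slide and scan day were read from the file headers and slide set from the array design version stated there. The fit was tested on simulated data. Gene lists, with 659 of 714 members on the array, carry no set test.

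The members and lists were chosen with earlier results of these data known. The text names genes from a rule: the 12 largest values past the threshold in each direction, the 3 smallest p of each list with a call, and a list of always eligible genes. Fcgr1a, Cd68, Timp1, Serpinb5, Guca2b, Hoxb13 and Adh1c lie outside it and were named after their values were seen. Some genes that the rule gives are not reported here. Alternatives were the rat block, slide, slide set and scan day, normalization, offset, filter, probe choice, array weights, repeat arrays, raised-signal arrays and each rat left out. Counting DSS rats 1 and 5 as 1 rat was added after the data were seen. No genome position was read from the arrays, since no build is given in the sources used here.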

Additional observations from a re-analysis of the deposited data

Results flagged for a closer look

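The difference between DSS and untreated rats in the tumour minus normal colon contrast passed for 1697 probes. In 19 named genes that passed, tumour minus normal colon had the same sign in all DSS rats and the opposite sign in all untreated rats. These genes had passed the same contrast, so their number is a description. The share over all genes was not counted. The interaction of these genes was -7.28 for Clca4l, -5.52 for Cxcl2, -5.22 for Alpl, -4.93 for Wfdc18, -4.85 for Prss22, -4.74 for Krt15, -4.56 for Clca5, -4.36 for S100a8 and -4.21 for Crabp2. It was -3.60 for Cxcl3, -3.12 for S100a4, -2.32 for Clca4, -2.20 for Anxa1 and -1.29 for Ehf. The positive ones were 2.22 for Sstr1, 2.20 for Anpep, 2.14 for Pdlim3, 1.81 for Foxa2 and 1.06 for Foxa3.

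Single rats stood apart in 8 of 144 groups of tumour minus normal colon values tested over the 72 named genes (5.6%), and chance alone flags about 1 in 20. Among untreated rats, rat 8 had -4.585 for Stfa3, where the other 4 had -0.75 to 0.34, and -1.812 for Krt10, where the others had -0.16 to 0.10. Rat 2 had -1.22 for Slco2b1, where the others had -3.35 to -2.96. Among DSS rats, rat 6 had -1.227 for Ces1e (others 0.56 to 1.25) and 1.08 for Slc16a3 (others 0.52 to 0.59). Rat 7 had -0.054 for Aldh1a3 (others 0.26 to 0.37) and 1.277 for Ass1 (others 2.47 to 2.71). Rat 9 had -4.271 for Crabp2 (others -2.32 to -2.04).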

How the results depend on the processing

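The count of 1697 probes (860 higher, 837 lower) was within 1.5 times under a random rat block, slide set as covariate, scan day as block, Aquantile (which leaves ratios as they are by construction), an offset of 16, processed signals, no filter on dim probes, a filter at 12 arrays and 1 probe per symbol. Without the replicate block (the pairing by rat) it was 708 (235 higher, 473 lower), and 14 of 67 named calls were lost. Within slide set 1 it was 536 (78 higher, 458 lower), and within slide set 2 it was 0 (0 higher, 0 lower), where only 2 rats per treatment enter. With slide as a block 461 were higher. Median centring gave 3420 (3050 higher, 370 lower), and the 3 arrays with raised signal left out gave 338 (71 higher, 267 lower). Array weights gave 2866 (1333 higher, 1533 lower), and first arrays alone gave 1322 higher. With DSS rats 1 and 5 counted as 1 it was 857 (402 higher, 455 lower). Leaving out 1 rat at a time gave 567 to 1832 probes (197 to 879 higher, 370 to 953 lower). The cause of these changes was not tested, beyond the fewer rats that some of them hold. The median over all probes was 0.39 under median centring and 0.17 with processed signals, against 0.03 in the main setting.

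Directions turned for 5 named genes. Pgk1 had 0.139 and Pfkp 0.185 under median centring. Reg3b, which did not pass, had 0.386 within slide set 1, 0.38 under median centring, 0.076 with first arrays alone, and -1.239 to 1.48 with 1 rat left out. Muc2, which did not pass, had -0.217 within slide set 1 and -0.418 with processed signals. Axin2, at 0.01 in the main setting, had -0.141 with an offset of 16, -0.301 with processed signals, -0.019 with array weights, -0.039 with first arrays alone, and -0.201 to 0.241 with 1 rat left out. The other 65 of the 67 genes that passed kept their direction in each alternative run on them, 28 for each gene except Krt10 with 27, which the filter at 12 arrays left out. Several alternatives could not turn a direction, because they leave a gene's value as it is where no rat is missing. These are no replicate block, a random rat block, slide set as covariate, Aquantile, both filter changes and 1 probe per symbol. Ratios of probes near background are pulled toward 0 by the offset, which can make values of dim probes too small. Its part in the weaker values of dimmer probes of a gene was not tested. Not all dimmer probes were weaker, since those of Anxa1 (-3.96), Il1b (-3.68) and Dpp4 (2.54) had larger values by size than the brightest probe.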

Other observations

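Further lists are given beside shares of 3.83% higher and 3.94% lower over all genes. MHC class II presentation had 1 lower gene of 8 measured (RT1-Bb, median -0.68), the interferon response 2 of 23 (Ifit1 and Gbp2, median -0.23) and tight junctions 1 of 19 (Cldn1, median 0.13). The EGF family had 2 higher genes (Erbb2 and Lrig1) and 1 lower (Nrg1) of 13. The calls of these MHC, interferon and EGF genes all ended without the rat pairing and with DSS rats 1 and 5 counted as 1. Myc and ribosome biogenesis genes had 0 of 20 past the threshold in the limma fit (6 at an unadjusted p under 0.05, median -0.26), enteric neuron and glia genes 0 of 16 (2 unadjusted, median 0.55) and enteroendocrine genes 0 of 13 (6 unadjusted, median 0.52), beside a median of 0.03 over all probes tested.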
